A study of Mus musculus with 16 samples.

Results

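Interferon-stimulated genes are described here in the ileum of diabetic mice with steatohepatitis. The group was given as a list of 40 names, set by what the genes are known for but drawn up with earlier results of these data known, and comprised regulators of the interferon response, antiviral effectors, guanylate-binding proteins and immunity-related GTPases, antigen processing genes and apolipoprotein L genes. All 40 were among the 41740 genes of the count files, and all 40 passed the filter on low counts together with 15267 genes in all. RNA of the whole ileal wall was sequenced from male STAM mice, a model in which streptozotocin given at 2 days of age and a high-fat diet from 4 weeks produce diabetes with fatty liver disease and liver tumors. Every mouse had the C57BL/6J background and floxed insulin receptor alleles, received both streptozotocin and the diet, and was sampled at 20 weeks of age. The 4 Control-STAM-nonINS mice had no Villin-Cre and were injected with saline. The 6 Control-STAM-INS mice had the same genotype and were injected with insulin degludec 2 times a day from 6 weeks of age, at up to 12 U/kg. The 6 ieIRKO-STAM-INS mice received the same insulin and also carried Villin-Cre, which is active in the epithelium of the gut and not in the other cells of the wall. The comparison of Control-STAM-INS with Control-STAM-nonINS asks what insulin treatment changes, and the comparison of ieIRKO-STAM-INS with Control-STAM-INS asks what depends on the epithelial insulin receptor.

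Interferons are cytokines that warn cells of infection. Type I and type III interferons act on target genes mainly through the interferon-stimulated response element (ISRE), to which STAT2 and IRF9 are brought as parts of a complex, whereas interferon gamma acts mainly through the gamma-activated site (GAS). In the gut, a basal interferon tone is maintained by the microbiota, and epithelial cells respond strongly to type III interferons while intraepithelial T cells are a source of interferon gamma.

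The libraries held 13288018 to 22215382 counts. Epithelial genes were abundant, and Vil1, the gene of the brush border protein villin, was at 1272 to 3172 CPM, counts scaled to the size of the library, with the lowest values in Control-STAM-nonINS replicate 4 (1436 CPM) and ieIRKO-STAM-INS replicate 5 (1272 CPM). ieIRKO-STAM-INS replicates 2 and 3 stood apart from the rest by high B cell genes, with mean log2 CPM values of 6.46 and 5.75 over Cd79a, Cd79b and Ms4a1 and at most 3.64 in every other library. Insr, the gene targeted in the epithelium, was at 88.3 to 116 CPM in Control-STAM-nonINS, 49.9 to 76.1 CPM in Control-STAM-INS and 57.5 to 90.4 CPM under the label ieIRKO-STAM-INS. Insr therefore did not separate the insulin-treated genotypes (log2 fold change 0.10, adjusted p = 0.805 by edgeR's quasi-likelihood test with Benjamini-Hochberg adjustment), and counts over the whole gene in the whole wall do not check the genotype label.

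The sequence before the start of 5 members that the results turn on, and of Oas1a as a member that did not pass the test, shows which of these elements each gene carries. RefSeq promoter windows, from 250 bases before to 50 bases after the start of each transcript (GRCm38.p6), were matched to 31 of the 40 members by symbol. The stretches below run 5′ to 3′ on the strand of the gene and end before the annotated transcript or at the last motif. They lie at chr11:53769764-53770013 (plus strand), chr3:142620413-142620613 (plus strand), chr15:77476797-77477046 (plus strand), chr19:34601969-34602218 (minus strand), chr5:120907526-120907775 (minus strand) and chr7:141266482-141266674 (minus strand), all in build GRCm38 and upstream of the first exon, except that the Gbp2 stretch also covers the first 12 bases of an annotated first exon. Capitals mark the ISRE core GAAANNGAAA or the GAS core TTCNNNGAA, searched on both strands.
Irf1: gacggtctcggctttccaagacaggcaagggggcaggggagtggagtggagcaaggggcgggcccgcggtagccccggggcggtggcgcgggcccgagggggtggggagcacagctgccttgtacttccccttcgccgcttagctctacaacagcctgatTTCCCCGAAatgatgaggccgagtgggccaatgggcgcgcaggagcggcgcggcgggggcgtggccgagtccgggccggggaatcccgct
Gbp2: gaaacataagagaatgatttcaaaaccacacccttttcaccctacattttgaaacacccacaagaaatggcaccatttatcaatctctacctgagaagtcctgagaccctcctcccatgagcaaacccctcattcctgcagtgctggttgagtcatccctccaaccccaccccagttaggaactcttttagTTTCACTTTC
Apol10a: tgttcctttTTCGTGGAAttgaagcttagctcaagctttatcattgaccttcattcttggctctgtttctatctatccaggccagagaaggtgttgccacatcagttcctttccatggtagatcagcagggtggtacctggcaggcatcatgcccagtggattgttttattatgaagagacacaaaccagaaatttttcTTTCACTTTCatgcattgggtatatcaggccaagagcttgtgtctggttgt
Ifit1bl1: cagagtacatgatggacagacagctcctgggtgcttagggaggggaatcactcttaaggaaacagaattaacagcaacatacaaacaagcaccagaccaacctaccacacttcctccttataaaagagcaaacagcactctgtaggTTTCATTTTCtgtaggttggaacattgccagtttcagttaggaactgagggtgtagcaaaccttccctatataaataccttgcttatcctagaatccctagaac
Oas1a: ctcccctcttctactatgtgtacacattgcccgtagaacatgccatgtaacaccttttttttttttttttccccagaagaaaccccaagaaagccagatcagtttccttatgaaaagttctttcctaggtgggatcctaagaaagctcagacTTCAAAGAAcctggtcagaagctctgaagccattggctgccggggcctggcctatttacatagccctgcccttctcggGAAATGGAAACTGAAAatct
Irf7: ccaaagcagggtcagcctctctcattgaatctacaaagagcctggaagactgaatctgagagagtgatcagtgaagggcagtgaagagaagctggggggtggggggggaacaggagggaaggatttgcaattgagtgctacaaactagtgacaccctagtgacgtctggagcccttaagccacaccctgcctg
Irf1 carried a GAS core and no ISRE core in this window, and a second RefSeq window of Irf1 held neither. In the windows shown, Gbp2, Apol10a and Ifit1bl1 each carried 1 ISRE core, beginning at positions -59, -51 and -104 relative to the RefSeq start, and Apol10a had a GAS core as well. A second RefSeq window of Ifit1bl1 held another ISRE core at position -23. It is not shown because its end was not found in an annotated transcript of the gene. The Oas1a window held 2 overlapping ISRE cores next to the start and 1 GAS core. No match was found in the Irf7 window, which says only that these letters were not in it.

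Over the members, 20 of the 31 with a window held the ISRE core (64.52%), against 3.99% of the 27025 genes in the same table. The stricter form GAAANNGAAAC was present in 16 members (51.61%) and 0.94% of genes. The GAS core was present in 8 members (25.81%) and 9.55% of genes. The ISRE core was found in all 5 guanylate-binding protein and immunity-related GTPase genes with a window, in all 3 apolipoprotein L genes, in 9 of 14 antiviral effectors and in 3 of 6 regulators (Ddx58, Ifih1 and Stat2). None of the 3 antigen processing genes held it, and Psmb8 among them held a GAS core. These matches are descriptions of letters and were not tested as binding sites.

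The interferons themselves were barely read. Of 21 ligand genes in the files, 16 had no count in any of the 16 libraries, including Ifnb1 and Ifnl3. Ifng, the gene of interferon gamma, had 26 counts in all, at most 5 in a library, and was detected in 11 libraries. Ifnk had at most 3 counts in a library, Ifnz at most 3, Ifna13 2 and Ifnl2 1. None of the ligands passed the filter, so no difference in them was detectable at this depth.

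The members were nevertheless read in every group. Per kilobase of merged exons, which allows genes to be compared, the highest mean levels over the 16 libraries were those of Apol10a (83.8 CPM per kilobase), Irf1 (38.9), Irf7 (28.0), Ifit1bl1 (27.4) and Bst2, which tethers virions to the cell surface (24.6). The lowest was that of Ifi44 (0.354 CPM per kilobase). Some members share sequence with relatives, and reads could have been split or lost between them. Of the 50-base windows of their transcripts, 57.6% in Oas1a also occurred in Oas1g or Oas1b, 52.3% in Apol9b occurred in Apol9a, 51.2% in Ifit3 occurred in Ifit3b, and 16.9% in Apol10a occurred in other Apol genes. Irf1 overlaps Gm17334, Irf7 overlaps Phrf1 and Psmb9 overlaps Tap1 on the opposite strand, and whether the counting used strand is not given in the sources used here.

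**Figure D1:**
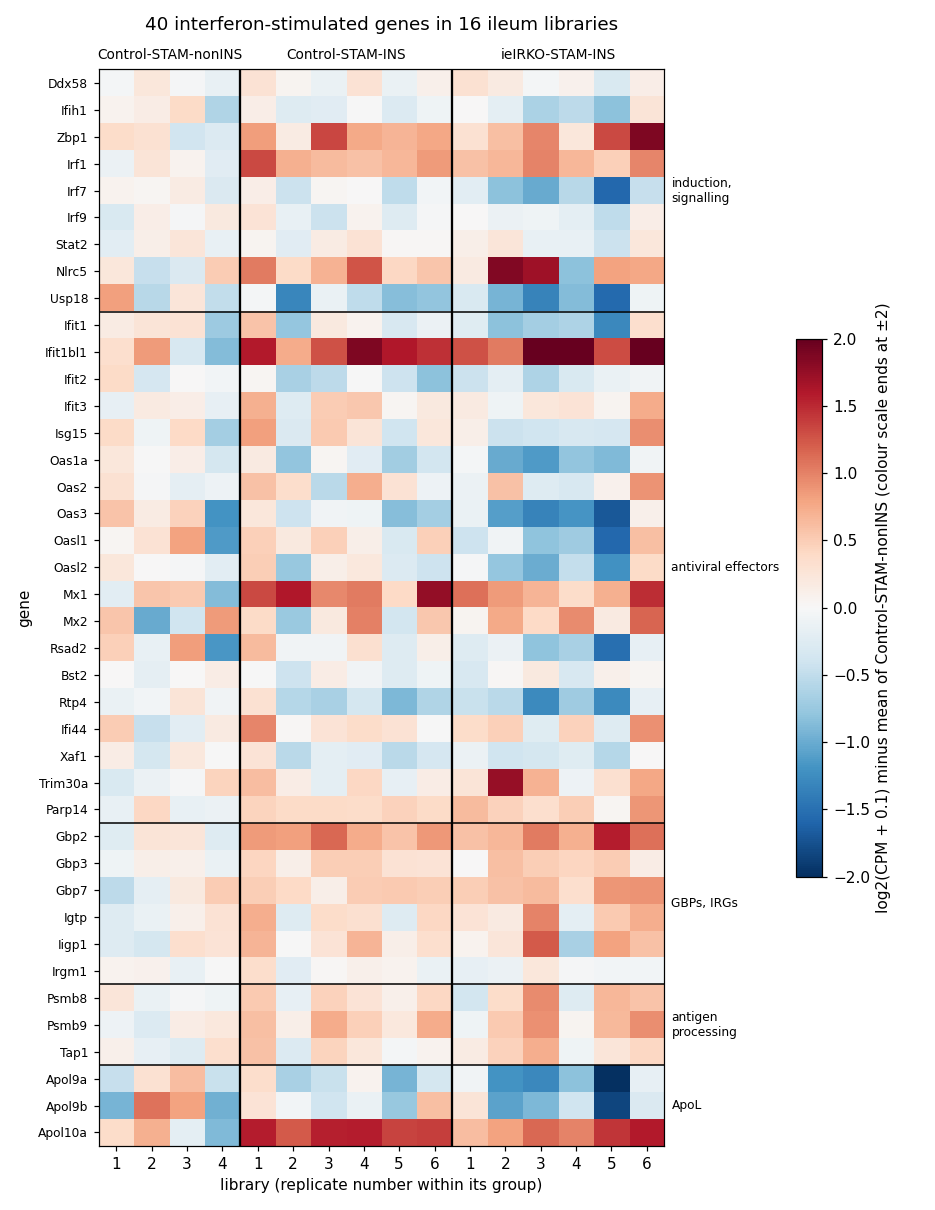
Each row is 1 of the 40 genes and each column 1 of the 16 libraries; colour is log2(CPM + 0.1) minus the mean of the 4 Control-STAM-nonINS libraries, and the colour scale ends at 2 in either direction. Apol10a, Irf1, Gbp2 and Ifit1bl1 are red across the insulin-treated columns, while Oas3, Oasl1, Rsad2 and Ifit1 are blue in Control-STAM-nonINS replicate 4 and in ieIRKO-STAM-INS replicate 5.

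In insulin-treated control mice, 5 of the 40 members were higher than in saline-treated control mice and 0 were lower. They were the transcription factor Irf1, the GTPase Gbp2, the apolipoprotein L gene Apol10a, and the antiviral effectors Mx1 and Ifit1bl1, with increases of 1.75-fold to 2.52-fold. Of all genes tested, 3.73% were higher and 6.76% lower at the same threshold, an adjusted p under 0.05 by edgeR's quasi-likelihood test. At an unadjusted p under 0.05, 10 members were higher and 1 was lower, where 10.8% of all genes were higher and 14.5% lower. In either direction these were 11 of 40 members and 25.4% of all genes. The median log2 fold change was 0.14 over the members (0.06 without Control-STAM-INS replicate 1 and 0.22 without replicate 5) and -0.0043 over all genes tested. The values of 4 members, Irf1, Gbp2, Apol10a and, by a very narrow margin, Gbp3, did not overlap between the groups and were higher with insulin. Of all genes, 4.4% did so in this direction and 6.23% in the other.

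Among the regulators, Irf1 encodes a transcription factor that is itself induced by interferon gamma. Irf1 was at 93.1, 120, 106 and 86.1 CPM in the 4 Control-STAM-nonINS libraries. In Control-STAM-INS it ranged from 151 to 252 CPM with a median of 161 CPM. Every insulin-treated library thus lay above every saline-treated one, and replicate 1 of the insulin group lay well above the other 5. The log2 fold change was 0.81 (SE 0.15, 95% confidence interval 0.49 to 1.12, adjusted p = 0.00262 by edgeR), with an exact two-sided permutation p of 0.00476, the smallest that 4 against 6 libraries allow. Zbp1, a sensor of Z-form nucleic acids that can start necroptosis, was at 10.3, 9.88, 6.10 and 6.60 CPM without insulin and at 8.94 to 20.4 CPM (median 13.7 CPM) with it. The Zbp1 ranges overlapped in 1 insulin-treated library, and the difference did not pass the adjusted threshold (log2 fold change 0.78, SE 0.31, adjusted p = 0.119 by edgeR). Irf7, which drives the transcription of type I interferon genes, was at 135, 132, 143 and 105 CPM without insulin and at 90.1 to 140 CPM (median 125 CPM) with it, so that the groups overlapped (log2 fold change -0.13, adjusted p = 0.751 by edgeR). The RNA sensors Ddx58 and Ifih1 and the ISRE-binding partners Stat2 and Irf9 had log2 fold changes between -0.16 and 0.09. Usp18, which removes ISG15 and dampens interferon receptor signaling, had the lowest value of this group (-0.65, adjusted p = 0.218 by edgeR).

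Among the 19 antiviral effectors, 2 rose and 17 did not pass the test, with a median log2 fold change of 0.10. Ifit1bl1 belongs to the family of interferon-induced proteins with tetratricopeptide repeats. Ifit1bl1 was at 29.3, 42.3, 18.6 and 12.6 CPM in Control-STAM-nonINS and at 38.9 to 85.1 CPM (median 67.1 CPM) in Control-STAM-INS. In 5 of the 6 insulin-treated libraries it exceeded every saline-treated library (log2 fold change 1.33, SE 0.36, adjusted p = 0.0318 by edgeR). Mx1 encodes a dynamin-like GTPase known for blocking influenza viruses, but C57BL/6 mice carry a defective allele that gives no functional protein, so that its level is read here as RNA only. Mx1 was low in every library, at 2.41, 4.16, 4.08 and 1.49 CPM without insulin and 3.73 to 9.72 CPM (median 6.52 CPM) with it. Again 5 of 6 insulin-treated libraries lay above all saline-treated ones (log2 fold change 1.18, SE 0.31, adjusted p = 0.0206 by edgeR). Parp14, an ADP-ribosyltransferase, was at 69.5, 103, 70.1 and 71.0 CPM without insulin and at 99.6 to 106 CPM (median 101 CPM) with it. The single high saline-treated library kept the groups overlapping, and Parp14 did not pass the threshold (log2 fold change 0.38, adjusted p = 0.0805 by edgeR). The 2',5'-oligoadenylate synthetase family, several of whose members make the activator of RNase L, had values on both sides of 0, with log2 fold changes of -0.28 for Oas1a, 0.28 for Oas2, -0.40 for Oas3, 0.12 for Oasl1 and -0.05 for Oasl2. Isg15, the ubiquitin-like modifier, was at 0.20, and Ifit1, a close relative of Ifit1bl1, was at -0.05. These differences lay within the spread of the libraries.

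All 6 guanylate-binding proteins and immunity-related GTPases, which attack pathogen vacuoles, had log2 fold changes above 0, and 1 of them passed the test. Gbp2 was at 8.91, 12.6, 12.6 and 8.83 CPM in Control-STAM-nonINS and at 15.8 to 23.5 CPM (median 19.0 CPM) in Control-STAM-INS. The groups did not overlap (log2 fold change 0.83, SE 0.18, 95% confidence interval 0.45 to 1.22, adjusted p = 0.00728 by edgeR, exact two-sided permutation p = 0.00476). Gbp3 was barely separated, with 8.860 CPM in the highest saline-treated library and 8.866 CPM in the lowest insulin-treated one. It missed the adjusted threshold (log2 fold change 0.36, adjusted p = 0.0900 by edgeR, exact two-sided permutation p = 0.0143). Irgm1, a regulator of autophagy and the highest of the 6 by CPM though not per kilobase, was at 32.6, 33.2, 28.0 and 30.9 CPM without insulin and at 26.4 to 39.7 CPM (median 32.1 CPM) with it. Irgm1 thus lay in the same range in both groups (log2 fold change 0.04, 95% confidence interval -0.18 to 0.27), and it was at 27.7 to 36.6 CPM (median 29.96 CPM) in ieIRKO-STAM-INS.

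The 3 antigen processing genes had positive values, and none passed the test. Psmb8 encodes a catalytic subunit of the immunoproteasome and was at 63.1, 48.9, 52.8 and 50.2 CPM without insulin and at 47.9 to 77.2 CPM (median 67.9 CPM) with it (log2 fold change 0.28, adjusted p = 0.452 by edgeR). Psmb9, another catalytic subunit, was at 19.8, 17.6, 23.4 and 24.6 CPM without insulin and at 23.0 to 35.6 CPM (median 30.9 CPM) with it (log2 fold change 0.49, adjusted p = 0.114 by edgeR). For both subunits 4 of the 6 insulin-treated libraries lay above all 4 saline-treated ones, and the groups overlapped. Tap1, which carries peptides into the endoplasmic reticulum, had a log2 fold change of 0.18. In ieIRKO-STAM-INS, Psmb8 was at 41.5 to 103 CPM (median 74.1 CPM) and Psmb9 at 19.95 to 40.4 CPM (median 31.8 CPM).

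The 3 apolipoprotein L genes, lipid-binding proteins with roles in immunity and cell death, differed from each other. Apol10a was at 155, 195, 104 and 65.2 CPM in Control-STAM-nonINS and at 281 to 357 CPM (median 332 CPM) in Control-STAM-INS. The lowest insulin-treated library was far above the highest saline-treated one (log2 fold change 1.33, SE 0.25, 95% confidence interval 0.80 to 1.86, adjusted p = 0.00363 by edgeR, exact two-sided permutation p = 0.00476). Apol9a and Apol9b, which share much of their sequence, had log2 fold changes of -0.33 and -0.29 and overlapped widely between the groups.

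Markers of T cells moved with insulin as well. Of 8 T cell genes, 3 were higher after insulin treatment by edgeR, where 3.73% of all genes were, and 1 had a log2 fold change below 0 (-0.20). The 3 were Cd3e (log2 fold change 1.47), Cd3g (1.74) and Cd8a (1.33), and none of the 8 was at 0 in any library. Their summed level was 23.1 to 49.6 CPM without insulin and 42.4 to 76.8 CPM with it. Itgam, 1 of 9 myeloid genes, was also higher (1.29), while 0 of 7 enterocyte genes and 0 of 7 B cell and plasma cell genes were called by edgeR (0 and 1 at an unadjusted p under 0.05). With the mean log2 CPM of Cd3d, Cd3e, Cd3g and Cd8a as a covariate, an alternative added after seeing the data, 0 of 40 members passed the threshold, and the calls over all genes fell from 1602 to 173. The log2 fold changes of the 5 members were then 0.70 for Irf1, 0.61 for Gbp2, 1.53 for Apol10a, 1.42 for Mx1 and 1.68 for Ifit1bl1, with adjusted p from 0.0886 to 0.284 by edgeR. The covariate itself differed between the groups, so that its part and that of insulin cannot be told apart. In whole-wall RNA, fewer cells of a type and less RNA per cell cannot be told apart either. With a covariate made from the 7 enterocyte genes the same 5 of 40 passed. The count of 5 was 3 without Control-STAM-nonINS replicate 1 and 8 with only these 2 groups in the fit. Mx1 and Ifit1bl1 each lost their call without Control-STAM-nonINS replicate 1 (adjusted p 0.0756 and 0.0692 by edgeR), where their log2 fold changes were 1.09 and 1.40. Without Control-STAM-nonINS replicate 4 the calls were lost as well (0.0628 and 0.0871), with log2 fold changes of 0.94 and 1.10. Ifit1bl1 also missed the threshold without Control-STAM-nonINS replicate 3 or without Control-STAM-INS replicate 1, 4, 5 or 6, with log2 fold changes from 1.21 to 1.33, against 1.33 with every library. Over all genes, the calls fell from 1602 to 824 without Control-STAM-nonINS replicate 1.

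**Figure D2:**
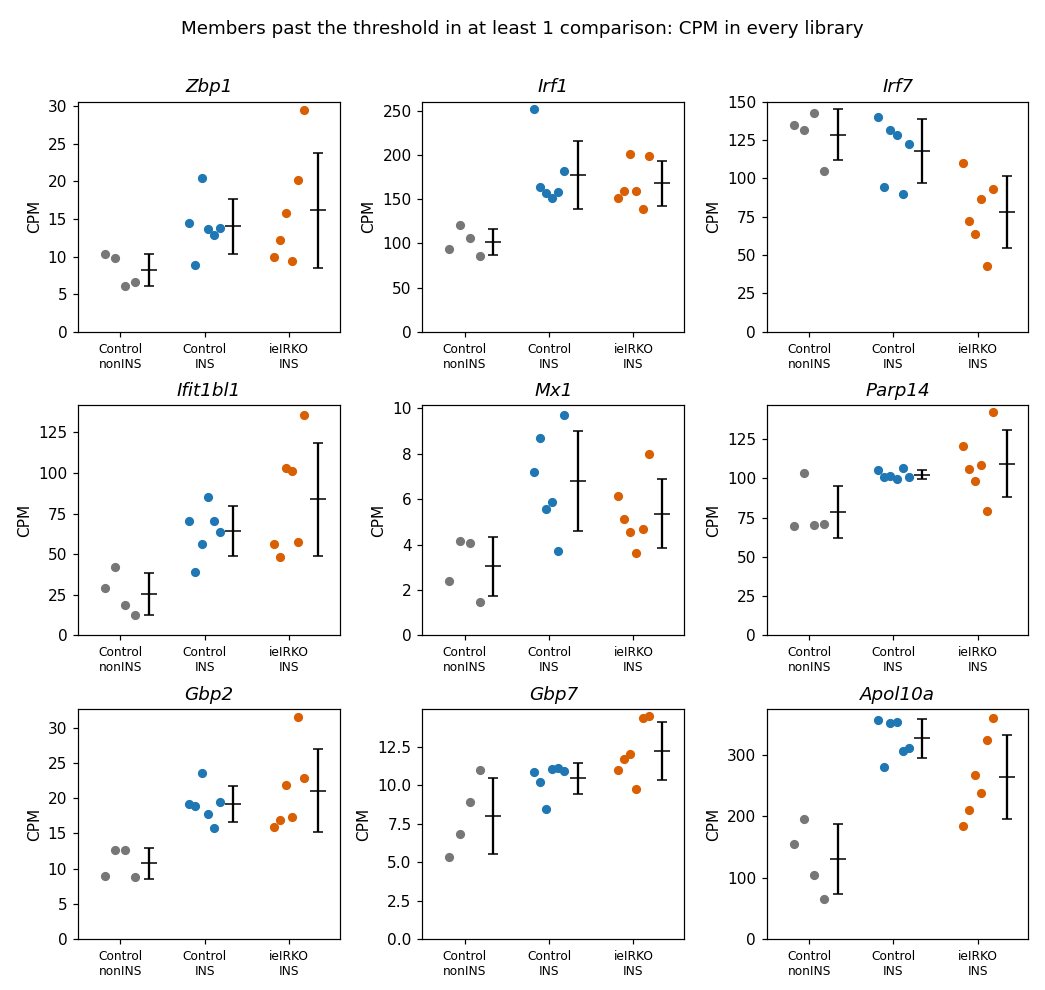
Points are CPM in single libraries for the 9 members with an adjusted p under 0.05 in at least 1 comparison, and bars beside them are the mean ± SD of each group (n = 4, 6 and 6). For Irf1, Gbp2 and Apol10a every Control-STAM-INS point is above every Control-STAM-nonINS point, and Irf7 is the only panel in which the points of ieIRKO-STAM-INS sit mostly below both other groups.

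Between the genotypes under insulin (ieIRKO-STAM-INS set against Control-STAM-INS), no member passed the test. In this comparison, 0 of 40 were called by edgeR and 0 by DESeq2, and 3 had an unadjusted p under 0.05 by edgeR. Of all genes tested, 0.0393% were higher and 0.183% lower at the adjusted threshold, and 11.3% had an unadjusted p under 0.05. The count of 3 was 8 without ieIRKO-STAM-INS replicate 6, 5 without replicate 1 and 1 without replicate 3, so that it does not place the members above or below all genes. The median log2 fold change was -0.05 over the members (0.03 without Control-STAM-INS replicate 1, -0.11 without ieIRKO-STAM-INS replicate 6) and 0.02 over all genes, and the groups overlapped for all 40 members, as they did for all but 0.439% of genes in the higher and 0.406% in the lower direction.

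The 3 members with an unadjusted p under 0.05, none of which passed the adjusted threshold, were Irf7, Rsad2 and Trim30a. Irf7 was at 43.2 to 110 CPM (median 79.3 CPM) in the libraries labelled ieIRKO-STAM-INS, and 4 of these 6 had less Irf7 than any of the insulin-treated controls. The log2 fold change was -0.59 (SE 0.18, 95% confidence interval -0.98 to -0.21, adjusted p = 0.290 by edgeR, exact two-sided permutation p = 0.0130). Rsad2, which encodes viperin, an enzyme that makes a chain-terminating nucleotide, was at 7.13 to 13.3 CPM (median 8.70 CPM) in Control-STAM-INS and at 2.94 to 7.82 CPM (median 6.28 CPM) in ieIRKO-STAM-INS (log2 fold change -0.67, adjusted p = 0.400 by edgeR). Trim30a, a tripartite motif protein, went the other way, with 6.29 to 11.2 CPM and 6.77 to 24.5 CPM in these groups (0.55, adjusted p = 0.439 by edgeR). Its highest value was that of ieIRKO-STAM-INS replicate 2, a library high in B cell genes, and the log2 fold change of Trim30a was 0.14 without replicates 2 and 3 and -0.02 with the B cell covariate. Cell type genes were compared between these groups as well, and 0 of the B cell and plasma cell list or the enterocyte list were called by edgeR. All 7 B cell and plasma cell genes were higher at an unadjusted p under 0.05 (median log2 fold change 2.02). All 7 enterocyte genes had values below 0 (median -0.49, 0 at an unadjusted p under 0.05). The libraries high in B cell genes were ieIRKO-STAM-INS replicates 2 and 3. Summed over the B cell and plasma cell list, levels were 1721 to 3118 CPM in ieIRKO-STAM-INS and 961 to 1542 CPM in Control-STAM-INS. With the enterocyte covariate the log2 fold changes were -0.43 for Irf7 and -0.36 for Rsad2, and with the B cell covariate they were -0.42 and -0.68.

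The 5 members that rose with insulin in control mice had levels in ieIRKO-STAM-INS that were not separated from those in Control-STAM-INS. Irf1 was at 139 to 200 CPM (median 159 CPM), Gbp2 at 15.9 to 31.5 CPM (median 19.6 CPM) and Apol10a at 184 to 360 CPM (median 253 CPM) in ieIRKO-STAM-INS. Mx1 was at 3.65 to 7.99 CPM (median 4.90 CPM) and Ifit1bl1 at 48.0 to 136 CPM (median 79.5 CPM). In 4 of the 6, Apol10a was lower than in any of the insulin-treated controls. The 95% confidence intervals of the log2 difference between the genotypes were -0.35 to 0.20 for Irf1, -0.19 to 0.47 for Gbp2, -0.76 to 0.14 for Apol10a, -0.89 to 0.20 for Mx1 and -0.27 to 1.04 for Ifit1bl1. Over the 40 members the intervals reached from -1.42 (Apol9b) to 1.10 (Trim30a), and differences within them were not detectable with these libraries.

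**Figure D3:**
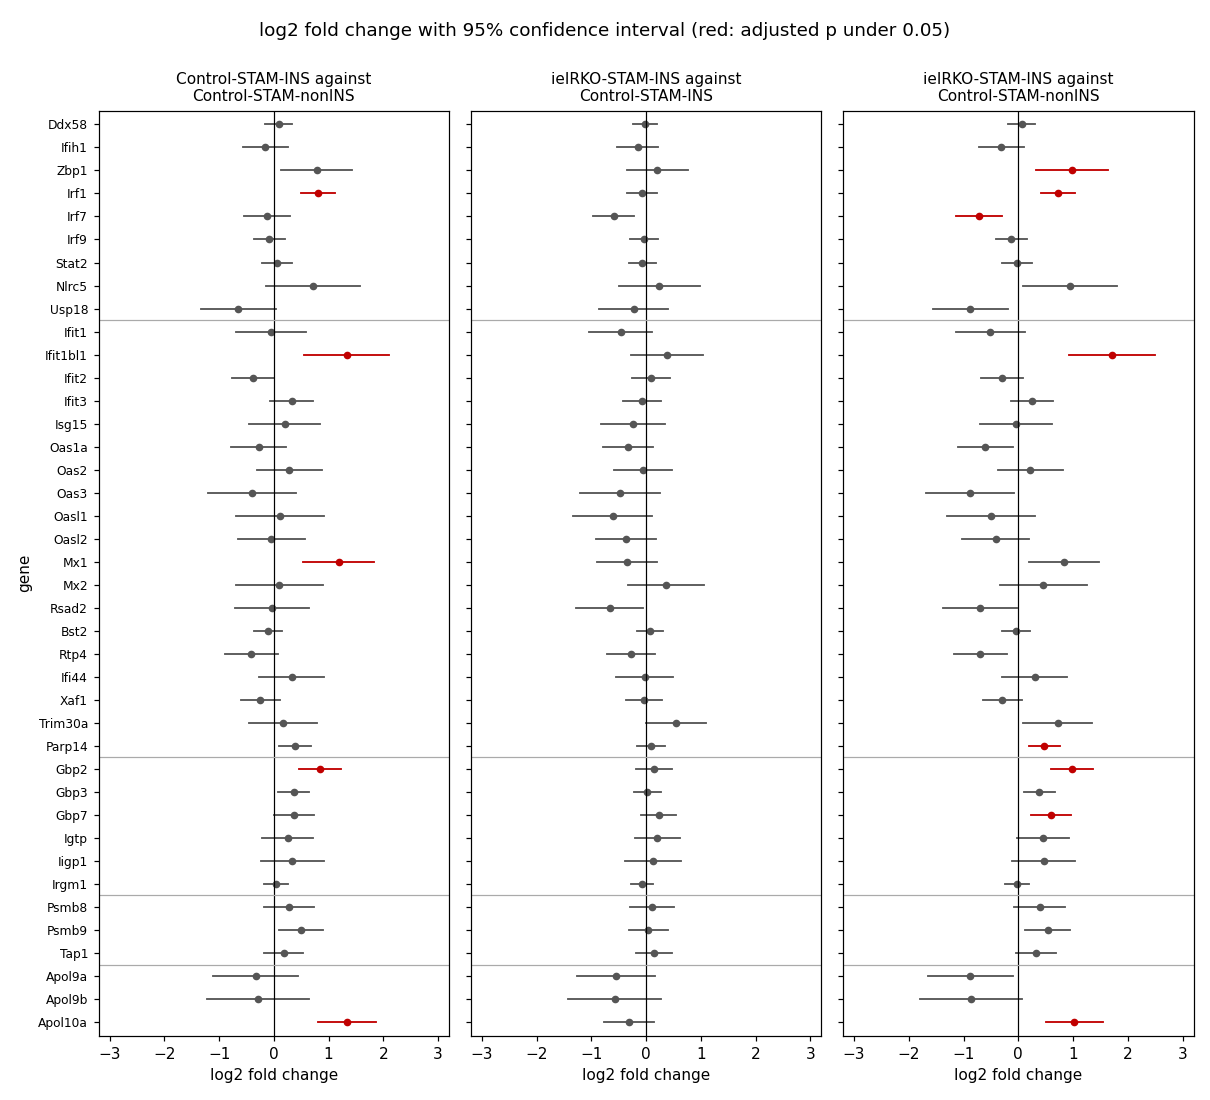
Points are log2 fold changes of the 40 genes and lines their 95% confidence intervals from edgeR, in the 3 comparisons of the design; red marks an adjusted p under 0.05. The left panel has 5 red points, the middle panel 0 and the right panel 8, of which Irf7 alone is on the negative side.

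The third pair of groups, ieIRKO-STAM-INS against Control-STAM-nonINS, differs in both genotype and insulin, whose parts cannot be told apart in it, and it shares libraries with the other comparisons. Here 8 of 40 members were called, 7 higher and 1 lower, where 5.74% of all genes were higher and 7.59% lower. The 7 were Irf1 (log2 fold change 0.73), Gbp2 (0.98), Ifit1bl1 (1.71), Apol10a (1.02), Parp14 (0.48), Gbp7 (0.60) and Zbp1 (0.99), with adjusted p from 0.00241 to 0.0452 by edgeR. Irf1, Gbp2 and Ifit1bl1 did not overlap between the groups on the higher side and Rtp4 on the lower, where 3.8% and 4.76% of all genes did so. Zbp1 was at 9.38 to 29.4 CPM (median 14.0 CPM) in ieIRKO-STAM-INS, and 4 of its 6 libraries lay above all saline-treated ones. Zbp1 lost its call when any 1 saline-treated library was left out (adjusted p from 0.0551 to 0.125 by edgeR), with log2 fold changes from 0.87 to 1.12. Parp14 was at 79.1 to 142 CPM (median 107 CPM), again with 4 of 6 above. Gbp7, a guanylate-binding protein, was at 5.36, 6.82, 8.89 and 11 CPM in Control-STAM-nonINS, at 8.44 to 11.1 CPM (median 10.9 CPM) in Control-STAM-INS and at 9.77 to 14.5 CPM (median 11.9 CPM) in ieIRKO-STAM-INS. The Gbp7 levels of the groups overlapped. The count of 8 was 4, 5 and 5 without Control-STAM-nonINS replicates 1, 2 and 3, and 3 with only these 2 groups in the fit.

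Irf7 was the 1 member that fell by edgeR with all libraries. By DESeq2 2 members were lower and 10 higher, without ieIRKO-STAM-INS replicate 6 it was 4 and 5, and without Control-STAM-nonINS replicate 1, 2 or 3 it was 0 lower, with 4, 5 and 5 higher. Irf7 in the 4 saline-treated libraries was at 105 to 143 CPM, and 5 of the 6 ieIRKO-STAM-INS libraries lay below all of them, with replicate 5 lowest at 43.2 CPM (log2 fold change -0.72, SE 0.20, adjusted p = 0.0248 by edgeR, exact two-sided permutation p = 0.0190). Replicate 5 was also the library lowest in Vil1. Without it and Control-STAM-nonINS replicate 4, the other library low in Vil1, Irf7 kept its call (log2 fold change -0.68, adjusted p = 0.0184 by edgeR), an alternative added after seeing the data. Irf7 lost its call in 8 of 21 alternatives, among them the omission of Control-STAM-nonINS replicate 1, 2 or 3 or ieIRKO-STAM-INS replicate 3 (adjusted p from 0.0514 to 0.0743 by edgeR), with log2 fold changes from -0.70 to -0.66. Rtp4, a transmembrane protein that restrains some viruses, was below all saline-treated libraries in 6 of 6 ieIRKO-STAM-INS libraries but did not pass the threshold (-0.69, adjusted p = 0.0540 by edgeR). Antiviral effectors had 11 of 19 values below 0 here, with Oas3 at -0.88, Rsad2 at -0.70 and Oas1a at -0.61, none of which passed the test with all libraries. Without Control-STAM-nonINS replicate 4, Oas3 (-1.15, adjusted p = 0.0427 by edgeR) and Rsad2 (-0.97, adjusted p = 0.0269 by edgeR) did. Oas1a passed without ieIRKO-STAM-INS replicate 1 (-0.74, adjusted p = 0.0406 by edgeR) or replicate 6 (-0.74, adjusted p = 0.0498 by edgeR).

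Immune cell genes moved in this comparison too, with 5 of 8 T cell genes, 3 of 7 B cell and plasma cell genes and 2 of 9 myeloid genes higher by edgeR. Of all genes tested, 5.74% were higher. The 5 plasmacytoid dendritic cell genes did not move as a list, with a median log2 fold change of 0.03, 2 values below 0 and 1 gene called higher. Of 7 enterocyte genes 1 was lower, the bile acid-binding protein gene Fabp6 (log2 fold change -0.59, adjusted p = 0.0338 by edgeR), and Vil1 was at 0.01. With the enterocyte covariate, Irf7 had a log2 fold change of -0.61 (adjusted p = 0.0175 by edgeR). The summed T cell level was 43.0 to 115 CPM in ieIRKO-STAM-INS, and that of the B cell and plasma cell genes was 1721 to 3118 CPM, against 719 to 1774 CPM in Control-STAM-nonINS. None of the T cell, B cell and plasma cell genes was at 0 in any library. With the T cell covariate 0 of 40 members passed here (adjusted p from 0.279 to 0.957 for the 8 by edgeR), with log2 fold changes of -0.24 for Irf7, 0.06 for Gbp7 and 0.60 to 2.12 for the other 6, and the calls over all genes fell from 2036 to 3. With the B cell covariate, and likewise without ieIRKO-STAM-INS replicates 2 and 3, 5 of 40 passed and Irf7, Gbp7 and Zbp1 lost their calls. Their log2 fold changes were then -0.58 and -0.62 for Irf7, 0.57 and 0.62 for Gbp7 and 1.11 and 1.08 for Zbp1, in that order of alternatives, while the calls over all genes were 1186 and 1270. Only Irf1 and Gbp2 kept a call in this comparison under every alternative other than the T cell covariate.

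Genes of the same pathway that are not among the 40 were read from fixed lists. Of 28 receptors and signal transducers counted here, 0 were higher (2 at an unadjusted p under 0.05) and 1 was lower by edgeR with insulin in control mice, where 3.73% and 6.76% of all genes were. Ifnar2, a chain of the type I interferon receptor, went down from 17.5 to 25.2 CPM without insulin to 10.002 to 14.5 CPM with it, with no overlap (-0.72, adjusted p = 0.00201 by edgeR). Between the genotypes under insulin 0 of 28 were called by edgeR (6 at an unadjusted p under 0.05, where 11.3% of all genes were). Against Control-STAM-nonINS, the libraries labelled ieIRKO-STAM-INS were higher in 2 of them, the DNA-sensing adaptor Tmem173 (0.79) and the endosomal DNA receptor Tlr9 (2.11), and lower in 1, the interferon gamma receptor chain Ifngr1 (-0.35), where 5.74% and 7.59% of all genes were higher and lower. Tlr9 was at 8.83 and 5.36 CPM in ieIRKO-STAM-INS replicates 2 and 3, the libraries high in B cell genes, and at 0.817 to 1.78 CPM in the other 4, against at most 1.71 CPM in the other groups.

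Of 93 other interferon-stimulated genes in the files, 85 were tested, and with insulin 6 were higher and 5 lower in control mice, where 3.73% and 6.76% of all genes were. The higher ones were Tapbpl, which edits peptides on MHC class I (log2 fold change 0.56), the ISG15-activating enzyme Uba7 (0.54), the immunity-related GTPase Irgm2 (0.62), the antibody receptor Trim21 (0.55), the galectin Lgals8 (0.41) and Ifit3b (0.79). The lower ones were the membrane proteins Ifitm1 (-1.27) and Ifitm2 (-0.53), which block the entry of viruses, the chemokine Cxcl11 (-0.82), Lgals3bp (-0.54) and Ifi27 (-0.50). Ifitm1 was at 15.8 to 36.2 CPM without insulin and at 7.67 to 14.1 CPM with it, with no overlap. Between the genotypes 0 of 85 were called by edgeR (19 at an unadjusted p under 0.05, 8 higher and 11 lower, where 7.38% and 3.9% of all genes were). Against Control-STAM-nonINS, ieIRKO-STAM-INS had 15 of 85 higher and 7 lower, where 5.74% and 7.59% of all genes were.

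Within groups the members did not vary as one block from library to library. Deviations of log2 CPM from the group mean were correlated over the 16 libraries, which share depth and tissue composition within each library, so that the values are descriptions with no test. Pairs of antiviral effectors had a median Pearson r of 0.41 over 171 pairs, and effectors and regulators had a median of 0.39. Pairs of an effector and a guanylate-binding protein or immunity-related GTPase had r on both sides of 0 (median 0.05, from -0.48 to 0.78 over 114 pairs, 66 of them above 0). The GTPases varied with the antigen processing genes (median 0.50 over 18 pairs, all above 0), and the antigen processing genes varied with each other (0.70 over 3 pairs). Apol9a and Apol9b had an r of 0.83, and they share sequence. Isg15 and Oas1a had an r of 0.90.

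The same division appeared against marker genes. With Vil1, 12 of 40 members had an r above 0.5 (14.3% of all genes tested), and with the T cell gene Cd3e 9 of 40 (8.62% of all genes). No member was above 0.5 with both. The 12 that varied with Vil1 were 4 regulators, 6 effectors, Apol9a and Apol9b, with r of 0.79 for Ddx58, 0.78 for Ifih1, 0.79 for Irf7, 0.74 for Oas3 and 0.76 for Rsad2. The 9 that varied with Cd3e included all 3 antigen processing genes, Igtp, Iigp1, Gbp7, Nlrc5, which activates MHC class I transcription (0.78), Trim30a (0.71) and Bst2 (0.68). Nlrc5 and Trim30a also varied with the B cell gene Cd79a (0.71 and 0.67), and Nlrc5 was highest in ieIRKO-STAM-INS replicates 2 and 3 (16.3 and 14.6 CPM), the libraries high in B cell genes. Of the members that rose with insulin, Irf1 had an r of 0.40 with Vil1 and 0.11 with Cd3e, Gbp2 had -0.28 and 0.23, Apol10a had 0.16 and -0.19, Ifit1bl1 had 0.38 and -0.25, and Mx1 had 0.63 and -0.07. Of these 5, Mx1 alone had an r above 0.5 with either gene. Control-STAM-nonINS replicate 4 and ieIRKO-STAM-INS replicate 5, the libraries lowest in Vil1, also had the lowest mean log2 CPM over the antiviral effectors in their groups (3.29 and 3.19).

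**Figure D4:**
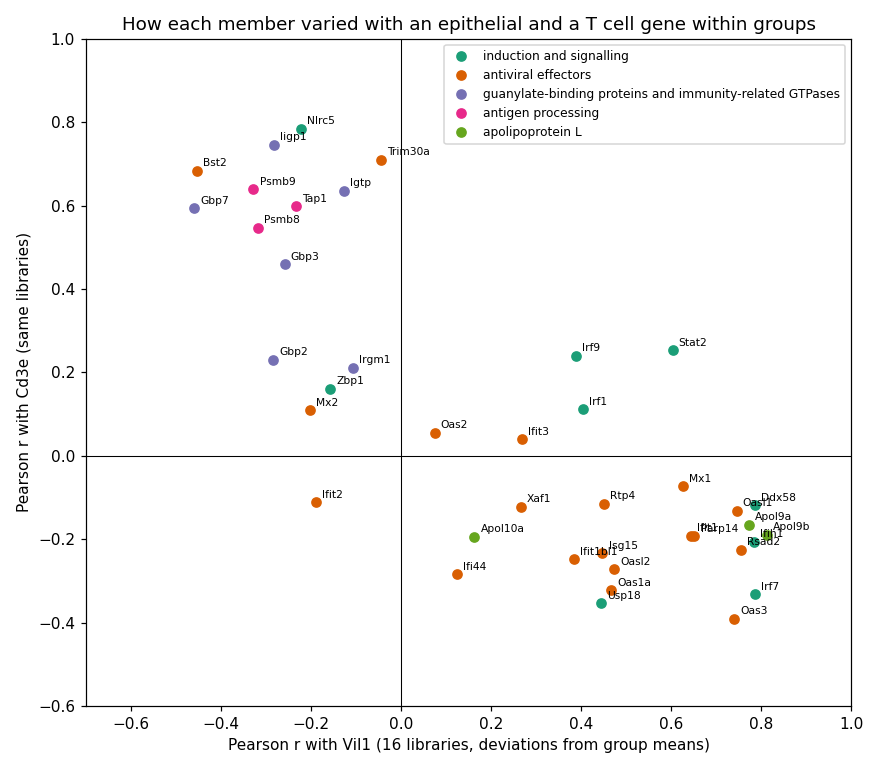
Each point is 1 of the 40 genes, placed by its Pearson r with Vil1 (x axis, epithelium) and with Cd3e (y axis, T cells) over the 16 libraries after subtraction of the group means; colours mark the role groups. Antigen processing genes and most GTPases lie at the upper left and many antiviral effectors and regulators at the lower right, and no gene has an r above 0.5 on both axes.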

How the data were processed

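Total RNA of the ileal wall was sequenced by the authors on a NovaSeq instrument and aligned to GRCm38 (mm10) in CLC Genomics Workbench, and the deposited files hold whole-number read counts per gene for 16 libraries. How reads with several positions and strand were counted is not given in the sources used here. Each library was a biological replicate by its labels and was grouped by its labels. Libraries of a group were checked for duplicates, and none agreed within sampling noise. From the counts, one edgeR 4.0.16 quasi-likelihood fit (R 4.3.3, limma 3.58.1) was made over all 16 libraries with TMM scaling, robust dispersion and filterByExpr (minimum count 10, minimum total 15, prior count 2), and p-values were Benjamini-Hochberg adjusted over 15267 genes, with a threshold of 0.05. CPM values used TMM-scaled library sizes. Exact two-sided permutation tests on log2 CPM used 210 or 924 arrangements of the libraries. Confidence intervals are at the 95% level and use the t distribution with the degrees of freedom of the fit. DESeq2 1.42.0, upper-quartile scaling, other filters, fits of the compared groups only, a replicate block, omission of single libraries, and B cell, T cell and enterocyte covariates were tried as alternatives, the T cell and enterocyte covariates and the omission of the libraries low in Vil1 having been chosen after seeing the data. Scripts were tested on simulated data. One gene of the receptor and signal transducer list is not reported here and is left out of its counts. Members, role groups and gene lists were chosen with earlier results of these data known. Values in each saline-treated library, and the range and median in the groups of 6, were given for members past the threshold in any comparison. The same was done for the most abundant member and the one with the smallest adjusted p in each role group. Other members were given by single values and ranges. Apart from the ligands, pathway genes outside the list were named only where past the threshold, though not all of those were named. A planned limit of 10 per list was exceeded. Rsad2 and Trim30a were given with group ranges after their values were seen. Gene positions were those of GENCODE M21, and figures were drawn with matplotlib.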

Additional observations from a re-analysis of the deposited data

Results flagged for a closer look

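In 12 of 120 gene and group sets, 1 library stood apart from the others of its group by Dixon's ratio, the gap to the nearest library over the range of the group. Chance gives about 6 if values are normally distributed and the sets are independent. CPM values need not be normal and the members varied together, so the 12 do not measure an excess. In Control-STAM-INS, replicate 1 was the high library for Irf1 (ratio 0.69), Rtp4 (0.65), Ifi44 (0.699) and Xaf1 (0.655), and replicate 3 was the low library for Gbp7 (0.654). In Control-STAM-nonINS, replicate 4 was low for Ifit1 (0.829), replicate 3 was high for Rtp4 (0.837) and replicate 2 was high for Parp14 (0.957). In ieIRKO-STAM-INS, replicate 6 was high for Ifit3 (0.632) and Isg15 (0.706), replicate 2 for Trim30a (0.683) and replicate 3 for Irgm1 (0.674). Replicate 1 of Control-STAM-INS also had the highest mean log2 CPM over the 40 members in its group (4.61, group median 4.28), and replicate 6 of ieIRKO-STAM-INS had the highest in its group (4.59, group median 4.13). Parp14 without Control-STAM-nonINS replicate 2 had a log2 fold change with insulin of 0.55 and an adjusted p of 0.0107 by edgeR, against 0.38 and 0.0805 with it.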

How the results depend on the processing

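With insulin in control mice the count of 5 members ranged from 3 (without Control-STAM-nonINS replicate 1) to 6 when single libraries were left out, was 8 with only the 2 groups compared in the fit, and was 0 with the T cell covariate. It was 4 with the replicate number as a block and 5 by DESeq2. Between the genotypes it was 0 under every alternative run. For ieIRKO-STAM-INS against Control-STAM-nonINS the count of 8 ranged from 4 (without Control-STAM-nonINS replicate 1) to 12 (without ieIRKO-STAM-INS replicate 1). It was 5 without Control-STAM-nonINS replicate 2 and 5 without replicate 3, 3 with only the 2 groups compared, 4 with the replicate block, 5 without ieIRKO-STAM-INS libraries 2 and 3, 5 with the B cell covariate, 0 with the T cell covariate and 14 at an adjusted p under 0.1, and 12 by DESeq2. Apart from the covariates and the fits with fewer libraries, the cause of these shifts was not tested. Same-numbered libraries had r from -0.094 to 0.179. Differently numbered libraries were not set beside them, so whether replicate numbers pair the libraries was not tested. Of 273 alternative values of the 13 called differences, 210 kept their side of the threshold, 63 lost it and 0 changed sign. Of 2324 alternative values of the 107 differences not called, 26 gained a call with the same sign and 158 changed sign without a call. Ifit1bl1 with insulin lost its call in 11 of 21 alternatives, Mx1 in 4, and Irf1, Gbp2 and Apol10a in 1, the T cell covariate. Against Control-STAM-nonINS, Zbp1 lost its call in 15 of 21, Gbp7 in 9, Irf7 in 8, Parp14 in 6, Apol10a in 3 and Ifit1bl1 in 2. Over the 21 alternatives the log2 fold change of Zbp1 ranged from 0.71 to 1.12 and that of Apol10a from 0.74 to 1.30. The ISRE core count of 20 members was 16 in the stricter form. With 4 to 6 libraries per group and low CPM, small differences in Mx1, Zbp1, Usp18 or Ifi44 could not be detected, and the ligands were too sparse to test.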

Other observations

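Ciita, the regulator of MHC class II transcription, was at 12.6 to 18.5 CPM in Control-STAM-nonINS, 18.3 to 26.2 CPM in Control-STAM-INS and 17.7 to 61.5 CPM in ieIRKO-STAM-INS, where replicates 2 and 3, the libraries high in B cell genes, had 61.5 and 50.8 CPM and the other 4 at most 24.0 CPM, with a difference between the first and the last of these groups (log2 fold change 1.18, adjusted p = 0.0257 by edgeR). The chemokines Cxcl9 and Cxcl11, which share a receptor, went opposite ways in that comparison, with log2 fold changes of 1.11 (adjusted p = 0.0346 by edgeR) and -1.13 (adjusted p = 0.00396 by edgeR). Cxcl11 was at 2.75 to 3.06 CPM in Control-STAM-nonINS and at 1.10 to 1.65 CPM in ieIRKO-STAM-INS with no overlap, while Cxcl9 was at 2.45 to 3.14 CPM and 1.84 to 10.7 CPM. Of 5 genes used as markers of plasmacytoid dendritic cells, known for type I interferon production, Siglech was at 0 to 1.36 CPM over the 16 libraries, and the summed level of the 5 was 62.8 to 93.5 CPM, most of it from Tcf4 and Bst2, which other cells express too. Ccr9, also expressed by gut T cells, was the 1 marker called higher in ieIRKO-STAM-INS than in the saline-treated group (log2 fold change 0.86, adjusted p = 0.0223 by edgeR).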
